A study of Mus musculus with 6 samples.

Results

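The proteasome, its immune variant and the machinery that loads its peptides onto MHC class I molecules were compared between 2 mouse colorectal cancer lines. MC38 cells are EPA-sensitive and MC38r cells are EPA-resistant, with a 6-fold higher IC50 reached by keeping them in EPA, the fish-oil lipid eicosapentaenoic acid. Per the labels, both lines were kept in serum-supplemented RPMI medium until subconfluent, and total RNA was hybridised to Illumina MouseWG-6 bead arrays, 3 per line. Nothing in the labels says that a further agent was given or whether MC38r is 1 clone, and since there is 1 sensitive and 1 resistant line, EPA resistance and any other way in which they differ cannot be told apart. Members were all array probes named for a Psma, Psmb, Psmc, Psmd, Psme, Psmf or Psmg gene, together with those for Tap1, Tap2, Tapbp, Erap1, Calr, Canx and Pdia3. They came to 92 of 45281 probes and 53 of 28711 genes. A filter on low signals, detection on at least 3 of the 6 arrays, was passed by 67 of these probes and 43 of these genes. Psmb9 passed it through MC38 alone and Tap1 through MC38r alone, so that a difference of these genes was built into their selection.

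The proteasome is the protease that degrades ubiquitin-tagged proteins. Its 20S core is a barrel of alpha rings around beta rings, in which Psmb5, Psmb6 and Psmb7 carry the catalytic sites, and a 19S cap of ATPases and other subunits recognises, unfolds and feeds in the substrates. Under interferon, Psmb8, Psmb9 and Psmb10 take the places of Psmb5, Psmb6 and Psmb7 in newly built cores, and the ring-shaped activator of Psme1 and Psme2 can replace the cap. Resulting peptides are pumped into the endoplasmic reticulum by Tap1 and Tap2, trimmed by Erap1, and loaded onto class I molecules with the help of tapasin (Tapbp), calreticulin (Calr), calnexin (Canx) and the disulphide isomerase Pdia3.

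Values are normalized log2 signals, with the mean ± SD over the 3 arrays of a line, and each change is MC38r over MC38. Levels of different probes are not compared, since probes differ in brightness. In bulk RNA, fewer cells with a transcript and less of it per cell cannot be told apart. Replicates are arrays that the labels number without naming separate cultures, so p-values measure a spread that may be technical. All arrays lay on 1 chip, with each line on its own adjoining sections, so that position and line cannot be told apart. The housekeeping controls (10270 to 10670 against 11550 to 12860), the biotin controls and the hybridisation controls were lower on the MC38r arrays, without overlap, while background controls overlapped, and their part in the results was not tested. MC38 replicate 2 and MC38r replicate 1 deviated from their lines together (r = 0.64 across genes, which are not independent), and MC38 replicate 2 was the farthest of its line for 22 of the 43 member genes. Without both arrays all 43 kept their call. Of 11 epithelial markers, 9 were not above background on any array, Epcam, Cdh1 and Vil1 among them, while Cdx2 was above it on all 3 MC38r arrays. Leukocytes carry immune proteasomes at rest. Of 17 leukocyte markers on the array, 15, including Ptprc, Cd3e, Lyz2 and Adgre1, were above background on no array. The summed signal of the 33 probes of all 17 lay between -37 and 28 in MC38 and between -28 and 41 in MC38r. Of the other 2, Cd74 was above background on 1 MC38r array, and Cd68 on 3 MC38 arrays and 1 MC38r array. Of 4 endothelial markers 3 were above it on no array. All 5 fibroblast markers were measured, of which Col3a1, Col1a2 and Pdgfrb fell (the first and last kept through MC38 alone), Pdgfra rose and Col1a1 did not pass, with summed signals of 311 to 418 in MC38 and 280 to 389 in MC38r, and their part in the results was not tested.

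MC38r cells had lower levels of many constitutive proteasome transcripts and higher levels of the peptide transporter genes, while the immune subunits moved apart. The catalytic subunit gene Psmb5 was 6.79-fold lower and the cap subunit gene Psmd8 was 24.1-fold lower. Each rests on a single probe, and the size for Psmd8 depended on the background correction. Of the immune genes, Psmb8 was 2.27-fold higher, Psmb9 at least 2.14-fold lower, and Psmb10, Psme1 and Psme2 did not pass the test. Tap1 was at least 2.23-fold, Tap2 2.31-fold and Tapbp 1.68-fold higher. Tap2 lost its call under some alternatives, and the rise of Tapbp was smaller with the deposited series values.

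The limma test was run over all 9799 genes on the array that passed the filter, with a Benjamini-Hochberg adjusted p under 0.05 as the threshold. Of the 43 member genes tested, 17 fell, 6 rose and 20 did not pass. Psmb9 among the 17 and Tap1 among the 6 passed the filter through 1 line alone. Among all genes tested, 56.5% passed, 27.7% lower and 28.8% higher. Without overlap between the lines, 20 members were lower and 7 higher, where 62.5% of all genes did not overlap, 30.3% lower and 32.2% higher. Constitutive here means all members named Psma to Psmg but the immune and tissue-restricted ones, so activators, an inhibitor and assembly chaperones are included. For 33 of these genes tested out of 39, 16 fell (48.5%), 2 rose (6.06%) and 15 did not pass. The 2 that rose, Psmf1 and Psmg3, are not subunits of the core or the cap. The median log2 change of the 33 was -0.31, beside 0.03 over all genes. Of the 5 immune genes, Psmb8 rose, Psmb9 fell and the other 3 did not pass, and their median was 0.04. Among 5 loading genes tested out of 7, 3 rose (with Tap1 kept through MC38r alone) and 2 did not pass, with a median of 0.75. These shares describe the lists and were not tested against the background.

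**Figure D1:**
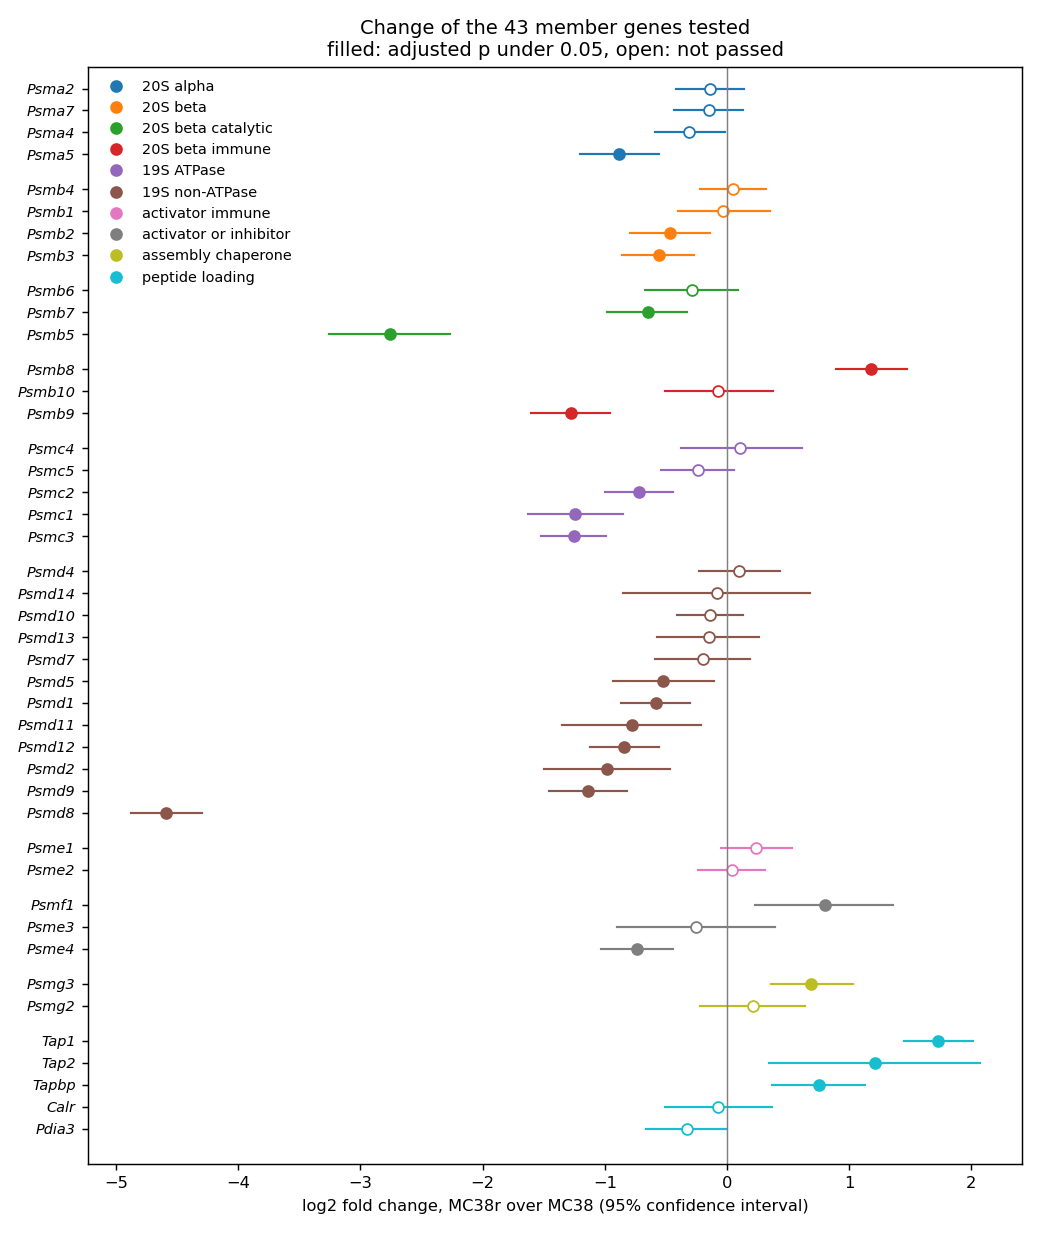
Fitted log2 fold change of MC38r over MC38 for the 43 member genes that passed the filter, grouped by role, with 95% confidence intervals. Filled points passed the test (17 lower, 6 higher), and Psmd8 (-4.59) and Psmb5 (-2.76) lie farthest to the left. The points of Psmb9 and Tap1 are fitted against a line not above background, so their size and their place among Tap2 (1.21) and Psmb8 (1.18) cannot be read.

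Psmb8, the immune counterpart of Psmb5, read 10.32, 10.1 and 10.38 on the MC38 arrays and 11.45, 11.42 and 11.48 on the MC38r arrays. Every MC38r array was above every MC38 array. The change was 1.18 on the log2 scale (SE 0.13, adjusted p = 5.7e-05), and a second, dimmer probe of the gene rose by 1.11. Psmb9, the immune counterpart of Psmb6, read 6.24, 6.27 and 6.5 in MC38 and 4.88, 5.17 and 5.14 in MC38r. Its probe was above background on all MC38 arrays and on no MC38r array. It fell by at least 2.14-fold, where the bound sets MC38r at the lowest signal called above background. The limma fit (adjusted p = 6.4e-05) used the values under background and not the bound, and the filter had built in a difference. Psmb9 is read by a single probe, so the fall has no second probe beside it.

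Psmb10, the immune counterpart of Psmb7, read 9.52, 9.23 and 9.82 in MC38 and 9.14, 9.58 and 9.65 in MC38r. The lines overlapped, and the change of -0.07 had a 95% interval from -0.51 to 0.38 (adjusted p = 0.8). Its second probe stood at 0.27 and did not pass either (adjusted p = 0.15 over all probes). Psme1 and Psme2 encode the subunits of the interferon-inducible activator PA28. Psme1 read 10.68, 10.83 and 10.88 in MC38 and 10.91, 11.09 and 11.1 in MC38r. Its lines did not overlap, but the change of 0.24 missed the threshold (interval -0.05 to 0.53, adjusted p = 0.14). With the deposited series values Psme1 passed (0.27, adjusted p = 0.039), as it did with the mean of its probes (0.3, adjusted p = 0.038), and its dimmer probe rose by 0.35 (adjusted p = 0.04 over all probes). Psme2 read 9.43, 9.47 and 9.4 in MC38 and 9.41, 9.41 and 9.59 in MC38r, with overlap and an interval from -0.24 to 0.31 (adjusted p = 0.82).

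**Figure D2:**
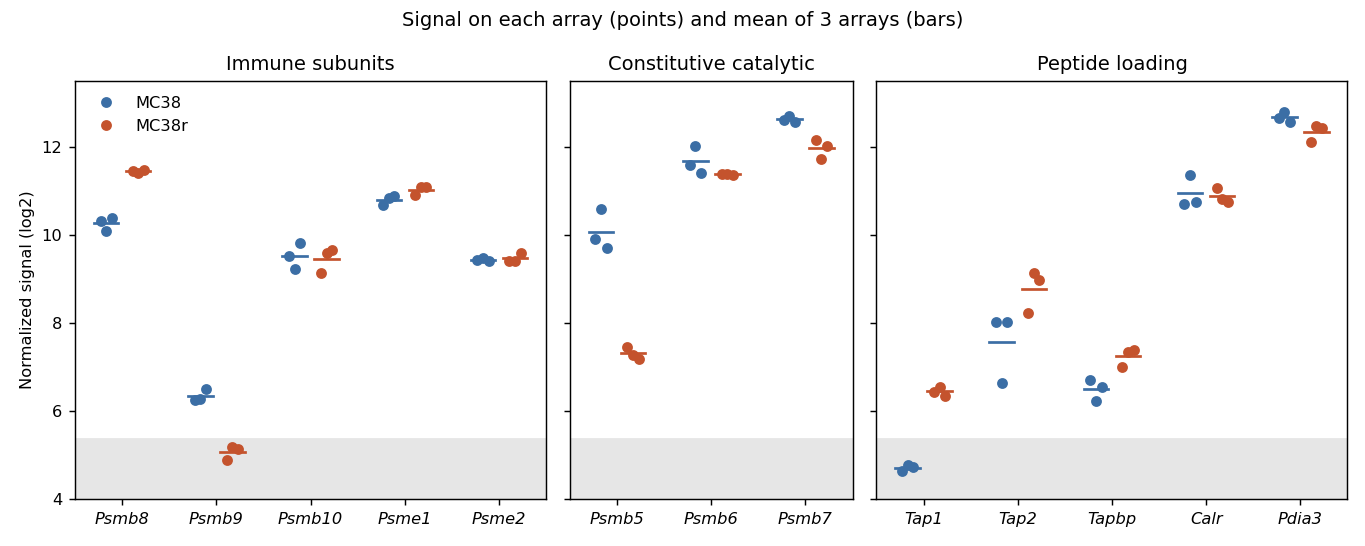
Normalized log2 signal on each array (points) and mean of the 3 arrays of a line (bars) for immune subunits, constitutive catalytic subunits and loading genes, with the grey band up to 5.36, the highest of the limits of detection of the arrays. The lines are apart for Psmb8, Psmb9, Psmb5, Tap1 and Tapbp and overlap for Psmb10, Psme2 and Calr, and Psmb9 in MC38r and Tap1 in MC38 lie inside the band.

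Psmb9, Tap1, Psmb8 and Tap2 follow one another on mouse chromosome 17 in the RefSeq annotation, with no other annotated gene between them. Of these 4 neighbours 3 rose and Psmb9 fell, beside 28.8% of all genes higher and 27.7% lower. Psmb9 passed the filter through MC38 alone and Tap1 through MC38r alone, so their opposite directions were built into their selection. Psmb9 and Tap1 are read in opposite directions from a shared promoter, and 225 bases separate their annotated starts. That promoter is shown because the transcripts on its 2 sides moved in opposite directions, and the Psmb8 promoter because it belongs to the neighbour that rose with Tap1. The Psmb5 promoter is shown because Psmb5 is the constitutive subunit that Psmb8 replaces. All 3 are from RefSeq on GRCm38.p6, run from 250 bases before to 50 bases after the start of the named gene, and are written 5′ to 3′ on its strand. They are chr17:34187306-34187605 on the + strand for Tap1, chr17:34197945-34198244 on the + strand for Psmb8 and chr14:54617946-54618245 on the - strand for Psmb5. Capitals in the first mark bases read into the transcripts, the first 25 into Psmb9 on the opposite strand and the last 50 into Tap1. In the second they mark a GAS match and in the third an ARE core match.
Tap1: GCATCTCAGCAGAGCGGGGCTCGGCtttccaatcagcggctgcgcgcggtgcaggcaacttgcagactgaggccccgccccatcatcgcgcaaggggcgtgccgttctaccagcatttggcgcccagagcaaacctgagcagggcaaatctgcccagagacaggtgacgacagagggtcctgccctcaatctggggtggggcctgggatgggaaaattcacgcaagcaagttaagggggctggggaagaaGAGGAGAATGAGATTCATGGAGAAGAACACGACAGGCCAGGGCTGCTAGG
Psmb8: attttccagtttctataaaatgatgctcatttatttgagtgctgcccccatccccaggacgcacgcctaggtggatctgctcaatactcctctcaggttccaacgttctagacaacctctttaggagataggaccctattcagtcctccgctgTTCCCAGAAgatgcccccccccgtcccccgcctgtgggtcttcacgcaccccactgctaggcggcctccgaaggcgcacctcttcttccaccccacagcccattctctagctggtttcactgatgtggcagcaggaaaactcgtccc
Psmb5: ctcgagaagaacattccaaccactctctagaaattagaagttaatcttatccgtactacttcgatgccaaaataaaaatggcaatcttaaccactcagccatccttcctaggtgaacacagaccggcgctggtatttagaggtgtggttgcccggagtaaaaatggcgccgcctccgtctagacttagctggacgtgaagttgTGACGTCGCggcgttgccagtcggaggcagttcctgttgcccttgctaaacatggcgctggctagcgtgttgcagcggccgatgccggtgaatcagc

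Of the 53 members, 44 had a promoter in the RefSeq table, 3 of them with 2 starts, which gave 47 windows. These were searched on both strands for a shortened ISRE core GAAANNGAA (bound by interferon regulatory factors), the GAS element TTCNNNGAA (an interferon gamma response element) and the ARE core TGACNNNGC (bound by NRF factors), and no matches of different motifs overlapped. The ISRE core was found in 7 windows (Psmb3, Psmb4, Psmc2, Psmd4, Psmd9, Psme1 and Erap1) and in 8.56% of all 32851 promoter windows of this length. GAS was found in 2 windows (Psmb8, starting 97 bases before the start, and Psmd2) and in 8.3% of all windows. The ARE core was found in 8 windows (Psmb5, starting 47 bases before the start, Psmb6, Psmc6, Psmd9, Psmd12, Psme4, Calr and Pdia3) and in 12.4% of all windows. These matches are descriptions of letters and not of binding. The Tap1 and Psmb9 windows held none of the 3 motifs as spelled here.

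Psmb5, which encodes the subunit with chymotrypsin-like activity, read 9.92, 10.59 and 9.71 in MC38 and 7.46, 7.28 and 7.18 in MC38r. All MC38r arrays were far below all MC38 arrays, and MC38 replicate 2 was the highest. The change was -2.76 on the log2 scale (SE 0.22, adjusted p = 7.2e-06), from the only probe of the gene. Psmb7, the subunit with trypsin-like activity, read 12.62, 12.7 and 12.56 in MC38 and 12.16, 11.73 and 12.03 in MC38r, without overlap. It was 1.57-fold lower (-0.65, SE 0.14, adjusted p = 0.0041), and its 3 other probes fell by 0.63 to 0.87. Psmb6, the subunit with caspase-like activity, read 11.6, 12.02 and 11.41 in MC38 and 11.39, 11.39 and 11.37 in MC38r. The lines lay next to each other without overlap, and the change of -0.29 did not pass (interval -0.67 to 0.09, adjusted p = 0.17).

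Each immune subunit was set against the constitutive one it replaces, as the difference of their signals within an array, and only the change of that difference between lines was read. For Psmb8 minus Psmb5 the difference was 0.41, -0.48 and 0.67 in MC38 and 3.99, 4.14 and 4.3 in MC38r. That is a 15.4-fold shift towards Psmb8, from the rise of Psmb8 and the larger fall of Psmb5 together. For Psmb9 minus Psmb6 it was -5.36, -5.75 and -4.9 in MC38 and -6.51, -6.23 and -6.23 in MC38r. This pair shifted the other way. Psmb9 passed the filter through MC38 alone, so a lower Psmb9 in MC38r was built into its selection. It was above background on no MC38r array, so the size of the shift is not fixed. The computed value was -0.99 on the log2 scale, -1.54 without normexp and -0.48 with an offset of 50. For Psmb10 minus Psmb7 it was -3.1, -3.48 and -2.74 in MC38 and -3.02, -2.15 and -2.37 in MC38r, a change of 0.59 with overlap. Exact two-sided permutation tests over the 6 arrays gave p = 0.1 for the first pair, p = 0.1 for the second and p = 0.2 for the last, unadjusted, where 0.1 is the smallest value that 3 against 3 arrays allow, so that no pair could pass a threshold of 0.05.

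**Figure D3:**
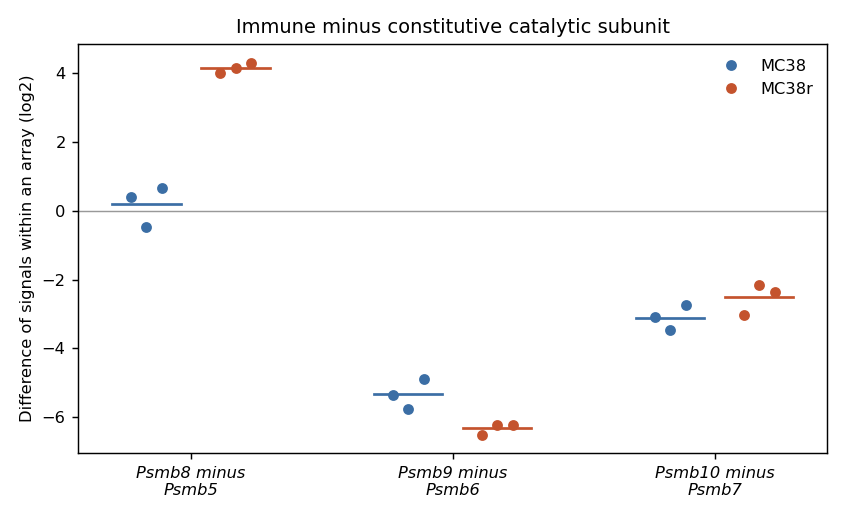
Difference of the log2 signals of an immune subunit and the constitutive subunit it replaces, within each array (points), with the mean of 3 arrays (bars). Only the shift between lines can be read, and it is 3.94 for Psmb8 minus Psmb5 and 0.59 for Psmb10 minus Psmb7. Psmb9 minus Psmb6 is lower in MC38r by a size that is not fixed, since Psmb9 was not above background there. Psmb9 was kept through MC38 alone, so a lower Psmb9 in MC38r was built into its selection.

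Tap1, a chain of the peptide transporter, read 4.63, 4.78 and 4.73 in MC38 and 6.44, 6.55 and 6.34 in MC38r. It was above background on no MC38 array and on all MC38r arrays, and so rose at least 2.23-fold. The limma fit (adjusted p = 3.9e-06) used the values under background and not this bound, and the filter had built in a difference. Tap2, the other chain, read 8.03, 6.64 and 8.03 in MC38 and 8.22, 9.13 and 8.97 in MC38r. The lines did not overlap, but the lowest MC38r array lay close to the upper MC38 arrays, and MC38 replicate 2 was low. Its rise of 1.21 (SE 0.38, adjusted p = 0.023) missed the threshold once MC38r replicate 2 (1.03, adjusted p = 0.086) or MC38r replicate 3 (1.11, adjusted p = 0.076) was left out. Leaving out MC38 replicate 2 lowered it to 0.74 (adjusted p = 0.026). Tapbp, which bridges the transporter and class I molecules, read 6.71, 6.23 and 6.54 in MC38 and 7.01, 7.34 and 7.39 in MC38r, a rise of 0.75 without overlap (SE 0.17, adjusted p = 0.0045), which was 0.36 with the deposited series values (adjusted p = 0.036). A second Tapbp probe was above background on no array.

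The general chaperones of the loading complex moved less. Calr read 10.71, 11.37 and 10.76 in MC38 and 11.07, 10.82 and 10.74 in MC38r, with overlap and an interval from -0.51 to 0.37 (adjusted p = 0.78). Pdia3 read 12.67, 12.79 and 12.58 in MC38 and 12.12, 12.47 and 12.44 in MC38r. All MC38r values were the lower ones, and the change of -0.33 missed the threshold (interval -0.66 to -0.01, adjusted p = 0.072). Pdia3 passed with an offset of 50 (adjusted p = 0.046) and with the deposited series values (-0.37, adjusted p = 0.032). Erap1 and Canx were not above background on any array with any of their probes.

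In the outer alpha rings of the core, which gate the entry of substrates, 4 of 8 genes were measured. Of these 1 fell (25%), near the 27.7% of all genes that were lower. Psma5 was lower by 0.88 on the log2 scale (13.81 ± 0.17 to 12.93 ± 0.12, adjusted p = 0.00062). Psma2, Psma4 and Psma7 had changes of -0.31 to -0.14 and did not pass, although Psma4 did with the deposited series values (-0.34, adjusted p = 0.023) and with an offset of 50 (-0.3, adjusted p = 0.035). Among the structural beta subunits, Psmb3 fell by 0.56 (12.99 ± 0.16 to 12.42 ± 0.05, adjusted p = 0.0052) and Psmb2 by 0.47 (12.96 ± 0.19 to 12.49 ± 0.13, adjusted p = 0.021), with a second Psmb2 probe at -0.61. Psmb2 did not pass without MC38 replicate 1 (adjusted p = 0.078), MC38 replicate 3 (0.074), MC38r replicate 1 (0.059) or MC38r replicate 2 (0.073). Psmb1 and Psmb4 stood at -0.03 and 0.05 and did not pass. The median over the 11 constitutive core genes tested was -0.31.

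Among the 17 Psmc and Psmd genes tested, 10 fell (58.8%), none rose and 7 did not pass. Over all genes 27.7% were lower and 28.8% higher. Psmc and Psmd genes encode subunits of the 19S cap and, in some cases, chaperones of its assembly. Their median was -0.58, with a range from -4.59 to 0.11. By the limma test at an unadjusted p under 0.05 none of the 17 was higher either. The cap holds the largest fall among the members. Psmd8, a subunit of the lid that covers the base of the cap, read 10.77, 10.72 and 10.98 in MC38 and 6.21, 6.3 and 6.2 in MC38r. All 6 arrays were above background and the lines were widely separated (-4.59, SE 0.13, adjusted p = 1.1e-08). The size depended on the correction, with -3.93 from the deposited series values, -4.08 with an offset of 50 and -4.91 without normexp. This rests on 1 probe, since the other Psmd8 probe was above background on no array of either line.

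Among the ATPases, which unfold substrates, Psmc3 read 11.19, 11.29 and 11.28 in MC38 and 10.03, 9.97 and 10.01 in MC38r. The spread within each line was small beside the fall of 1.25 (SE 0.12, adjusted p = 2.2e-05). Psmc1 read 9.58, 10.14 and 9.74 in MC38 and 8.63, 8.73 and 8.39 in MC38r, lower without overlap (-1.24, SE 0.17, adjusted p = 0.00028). Psmc2 was lower as well (-0.72, adjusted p = 0.00093). Psmc5 (-0.24, interval -0.54 to 0.06) and Psmc4 (0.11, interval -0.38 to 0.61) did not pass.

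Of the 12 non-ATPase genes tested, 7 fell (58.3%, beside 27.7% of all genes). Beside Psmd8 these were the lid subunits Psmd11 (-0.78) and Psmd12 (-0.84), the scaffolds Psmd1 (-0.58) and Psmd2 (-0.98), and the assembly chaperones of the base Psmd5 (-0.52) and Psmd9. Psmd2 read 5.43, 6.11 and 5.79 in MC38r, near the limits of detection (5.19 to 5.36). Its change ranged from -1.25 to -0.68 over the alternatives. A second Psmd2 probe stood at -0.7 and was above background on 1 MC38r array. Psmd9 read 6.48, 6.38 and 6.72 in MC38 and 5.46, 5.45 and 5.24 in MC38r, where it was above background on 2 arrays. The lines did not overlap (-1.14, SE 0.14, adjusted p = 0.00013), but a second, dimmer probe stood at 0.02, and the fall was 0.53 to 0.74 with the deposited series values, the mean of the probes or an offset of 50. Psmd5 did not pass without MC38 replicate 1 (-0.41, adjusted p = 0.13), MC38 replicate 3 (-0.48, 0.096), MC38r replicate 1 (-0.46, 0.092) or MC38r replicate 3 (-0.42, 0.13), nor with the replicate number as a block (adjusted p = 0.084). Psmd11 (-0.5 with the deposited series values) did not pass without MC38 replicate 1 (-0.77, adjusted p = 0.065), MC38 replicate 2 (-0.6, 0.058), MC38r replicate 2 (-0.73, 0.077) or MC38r replicate 3 (-0.58, 0.098). The ubiquitin receptor Psmd4 (0.1), the deubiquitinase Psmd14 (-0.08), Psmd7 (-0.2), Psmd10 (-0.14) and Psmd13 (-0.15) did not pass. Psmd14 had the widest interval of these, from -0.85 to 0.68, with MC38 replicate 2 at 9.51 against 8.29 and 8.27 on the other MC38 arrays.

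Regulators and assembly factors differed among themselves. Psme4, the nuclear activator PA200, fell by 0.74 (11.15 ± 0.17 to 10.42 ± 0.04, adjusted p = 0.0013). A second Psme4 probe stood at -0.7 and was above background on 1 MC38r array. Psme3, the nuclear PA28 gamma, did not pass (-0.25, interval -0.9 to 0.39). Psmf1 encodes PI31, first described as an inhibitor of the core. It read 10.77, 10.04 and 10.86 in MC38 and 10.95, 11.59 and 11.52 in MC38r. The lines did not overlap and MC38 replicate 2 was the lowest array. Psmf1 rose by 0.8 (SE 0.25, adjusted p = 0.022), but missed the threshold once MC38r replicate 2 (0.68, adjusted p = 0.084) or MC38r replicate 3 (0.71, adjusted p = 0.078) was left out. Psmg3, a chaperone of alpha ring assembly, read 10.12, 10.51 and 10.41 in MC38 and 11.13, 10.88 and 11.11 in MC38r, a rise of 0.69 without overlap (SE 0.15, adjusted p = 0.0035). Psmg2, another chaperone of that step, did not pass by its brightest probe (0.21, adjusted p = 0.38).

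Probes of a gene mostly gave the same call, in some genes only because no probe passed. Of the 67 member probes kept, 28 fell, 8 rose and 31 did not pass, where 55.1% of all 13990 kept probes passed, 27% lower and 28.1% higher. In 14 of the 18 genes with more than 1 kept probe, all probes had the same call, and in none did a probe rise beside another that fell. The exceptions were Psmd9, Psme1, Psmf1 and Psmg2. For Psma7, Psmb10, Psmc5, Psmd7, Psmd10 and Psmd14, all among the 14, the shared call was that no probe passed. In these genes other than Psmc5, the probes lay on both sides of 0, as for Psma7 (-0.15 and 0.11) and Psmb10 (-0.07 and 0.27). Among the 14 is Psmc2, whose dimmer probe was kept through MC38 alone, so the fall of that probe was built into its selection. The share of genes with agreeing probes over the whole array was not computed. For Psmf1 the dimmer probe stood at 0.4 (adjusted p = 0.075). For Psmg2 a dim probe fell from 7.11, 7.11 and 7.06 to 5.79, 5.39 and 5.69 (-1.47, adjusted p = 2.5e-05 over all probes), while the others stood at 0.21 and 0.35. With the mean of its probes Psmg2 was lower (-0.3, adjusted p = 0.05), so its direction depends on the probes used.

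**Figure D4:**
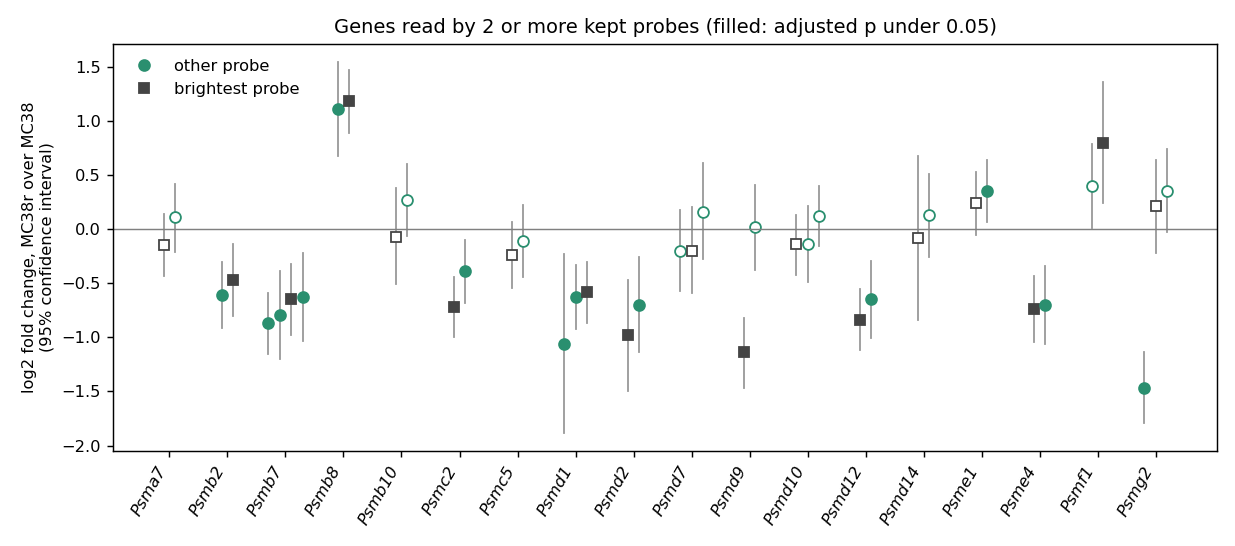
Fitted log2 fold change of MC38r over MC38 with 95% confidence intervals for each kept probe of the 18 member genes with more than 1 kept probe, the brightest as squares and the others as circles, filled where the adjusted p was under 0.05. Probes of Psmb7, Psmb8 and Psmd12 lie together, while for Psmg2 1 probe fell (-1.47) and the others lie above 0 without passing. The dimmer Psmd12 probe was above background on 1 MC38r array.

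For 10 members no probe passed the filter. They were Psma1, Psma3, Psma6, Psmc6, Psmd3, Psmd6, Erap1, Canx, the testis-restricted Psma8 and the thymus-restricted Psmb11. Psmd6 was above background on 1 array by 1 of its probes, and the other 9 on none. Psma1, Psma3, Psma6, Psmc6 and Psmd3 encode parts that every proteasome contains, so a probe at background here gives no statement on whether the gene was expressed.

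Among class I regulators and partners, 9 of 12 listed genes were tested. Of these, 7 were called higher, none lower and 2 neither, beside 28.8% of all genes called higher and 27.7% lower. Stat2 and Nlrc5, counted among the 7, passed the filter through MC38r alone, so their difference was built into their selection. The interferon signalling factor Irf9 rose 8.61-fold, and Stat2 was at least 3.29-fold higher. Nlrc5, the transactivator of class I genes, was above background on no MC38 array and all MC38r arrays (at least 2.5-fold). The class I light chain B2m stood at 13.3 in MC38 and 13.31 in MC38r, and Irf1, a known activator of the Psmb9 and Tap1 promoter, at 10.26 and 10 (adjusted p = 0.37). In the interferon gamma route, Ifng was above background on no array, and of 4 genes tested Jak2 rose 2.33-fold, Ptpn2 fell by 0.84 on the log2 scale, and Ifngr1 (-0.45) and Ifngr2 (0.34) did not pass.

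Listed proteasome genes and partners that are not members moved in few cases. Of 16 tested out of 22, 3 fell, none rose and 13 did not pass, where 56.5% of all genes passed, and the median was 0. The segregase Vcp (-0.98) and its cofactor Ufd1 (-0.67) were among those that fell. Nploc4 (-0.38) and Sem1 (0.37) did not pass, nor did the core maturation factor Pomp (0.05) and Nfe2l1 (0.19), the transcription factor known to drive proteasome genes. At an unadjusted p under 0.05 none of the 16 was higher by the limma test either. Among peptidases that trim or destroy peptides, 2 of 8 tested rose and 2 fell, led by Thop1 (-1.6), Dpp8 (1) and Xpnpep1 (0.67), while Tpp2 (-0.32) and Blmh (-0.08) did not pass. In glycoprotein folding and the import channel of the reticulum, 5 of 14 rose and 2 fell (with Hspa5, 1 of the 5, kept through MC38r alone), with the channel subunits Sec61a1 (1) and Sec61g (0.88) higher and the glucosidase subunit Ganab (-0.91) lower, while Pdia6 (0.56) and Man1b1 (0.29) did not pass. Both counts lie near the background of 56.5% of all genes called, 28.8% higher and 27.7% lower.

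The authors' deposited table, which lists genes with an unadjusted p of at most 0.05, holds 21 of the 53 members, 17 lower and 4 higher in MC38r. In the authors' deposited table, 5 of them had an adjusted p under 0.05, namely Psmb7, Psmb8, Psmc3, Psmd9 and Tap1. How many of all genes the authors' deposited table lists as lower or higher was not counted, so these counts have no background beside them. The authors' deposited table gives log2 changes of -2.69 for Psmb5 (adjusted p 0.2433), -3.93 for Psmd8 (adjusted p 0.0601) and -0.98 for Psmb9 (adjusted p 0.0527).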

How the data were processed

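Quantile-normalized signals came from GenomeStudio 1.9.0, per the file headers. The deposited table holds linear intensity values of 45281 probes, of which 35% to 35.1% per array lie under 0, so that background had been subtracted. The deposited detection score is 1 minus the detection p-value. The authors' deposited comparison gives a linear ratio, its log2 value and p-values from a test not given in the sources used here. The deposited series values are intensity per gene.

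Signals were background-corrected with normexp (nec in limma 3.58.1 with R 4.3.3, offset 16), log2-transformed and quantile-normalized. Probes were kept where 3 or more arrays had a detection p under 0.01 (13990), and the brightest stood for each gene (9799). RefSeq held 22775 of the 30854 names on the array, 5684 of these as synonyms and 868 through their gene number. The lines were compared in limma by lmFit and eBayes with no covariate, and Benjamini-Hochberg adjustment was over all genes, or over all kept probes for single probes. A gene not above background in 1 line has a fold of "at least", against the lowest signal above background on each array (5.19 to 5.36) or its own where higher, and that line's arrays are not ordered. The number of arrays limits the precision, with a median standard error of 0.15 on the log2 scale. In data simulated on 9799 genes, 9599 were left unchanged, whereas 56.5% of genes passed in the data. The fit recovered 94% of 50 genes raised by 2 on the log2 scale and 74% of 50 raised by 1. It recovered 48% of 50 lowered by 1 and 10% of 50 raised by 0.5. With fewer genes changed the adjusted threshold was stricter, so these shares do not give the power of the comparison itself.

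The members and the lists were chosen with earlier results of these data known, so the counts are descriptions. Named members are the immune, constitutive catalytic and loading genes, the 4 largest falls and the only 2 rises among the others, and the rest by role. From other lists up to 3 genes past the threshold and 2 that were not are named by size, and Pomp, Nfe2l1 and Nlrc5 were added after their values were seen. Some genes of these lists are counted but not reported here by name. Alternatives covered background correction, offset, normalization, the probe filter, the probes of a gene, a replicate block and the omission of arrays. Replicate numbers are shared between the lines, but same-numbered arrays did not deviate together (r = -0.49, -0.47 and 0.34 for numbers 1, 2 and 3), so no pairing was used.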

Additional observations from a re-analysis of the deposited data

How the results depend on the processing

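Under 16 alternatives, 18 of the 23 member genes past the threshold kept their call wherever they were tested, and 5 (Psmb2, Psmd5, Psmd11, Psmf1 and Tap2) lost it under at least 1. Without a probe filter, 4 of these lost it (Psmd5, Psmd11, Psmf1 and Tap2), and Psmb9, Psmd9 and Tap1 were not tested when every array had to be above background. Of 20 genes that did not pass, 3 (Pdia3, Psma4 and Psme1) passed in their own direction under at least 1 alternative. Psmg2 changed direction with the mean of its kept probes (-0.3) and passed there as a fall. With 1 array left out, 14 to 16 member genes fell against 17. Of constitutive genes 13 to 15 fell against 16, and of Psmc and Psmd genes 8 to 9 against 10. Member genes that rose numbered 4 to 6 against 6, and loading genes among them 2 to 3 against 3. Member probes that fell numbered 23 to 26 against 28 and those that rose 5 to 8 against 8, with 5 without MC38r replicate 2 and 5 without MC38r replicate 3. The pair differences ranged from 3.6 to 4.18 (Psmb8 minus Psmb5), from -1.19 to -0.77 (Psmb9 minus Psmb6) and from 0.4 to 0.84 (Psmb10 minus Psmb7). Omission leaves fewer arrays, and no other cause was tested. With the replicate number as a block, 16 member genes fell and 6 rose, Psmd5 was the call lost, and 4896 genes passed against 5536. Leaving out MC38 replicate 2 and MC38r replicate 1 together was chosen after seeing the data, and gave 17 falls and 6 rises. Fold sizes depend on the correction where a line is near background: Psmd8 ranged from -4.91 to -3.93, Psmb9 from -1.83 to -0.77 and Tap1 from 1.01 to 2.15 on the log2 scale.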
